A study of Mus musculus with 8 samples.

Results

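The genes described here build and run the mitotic spindle: 53 genes for the spindle checkpoint, mitotic kinases and cyclins, kinesin motors, the kinetochore, cytokinesis, chromosome condensation and the transcription factors that drive them. They were taken by gene symbol, and 52 of the 53 had a transcript cluster with a single symbol on the array, out of 19938 genes measured in all. Cyclin B1 (Ccnb1) was not analysed here. The samples were naive CD4 T cells, helper T cells that have not yet met antigen, from mice labelled T cell-specific conditional Bcl6-/- (n = 4, called Bcl6 cKO here) and from mice labelled wild type (n = 4, WT). Both groups received the same stimulus, CD3 and CD28 antibodies over 24 hours, and were then lysed for RNA, and 1 Affymetrix whole-transcript array was run per sample. Bcl6 is a transcriptional repressor known for its part in follicular helper T cell differentiation. The sources used here give neither the age nor the sex of the mice, nor the promoter driving the deletion. The labels do not say whether each sample came from its own animal, although Y-linked signals differed within both genotypes, so that each held more than 1 animal. The p-values below therefore reflect sample-to-sample spread that may be technical.

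Resting T cells sit outside the cell cycle and enter it about a day after activation. As background, most mitotic genes are then switched on late in the cycle: repression by the DREAM complex is relieved, and Mybl2 (B-Myb) and later Foxm1, bound to the MuvB core, activate them through a promoter element called the cell cycle genes homology region (CHR), often with CCAAT boxes nearby. Their products condense chromosomes, attach them to spindle microtubules, hold anaphase until every kinetochore is attached, and then divide the cell. In a mixed population their transcript level follows the share of cells in G2 and mitosis. On RNA of whole samples, more cells in mitosis and more mitotic RNA per cell cannot be told apart.

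Any part of promoter elements in the variation between arrays was not tested. The upstream sequences below are shown because the CHR and the CCAAT box are elements that mitotic genes are known to share. They are the 6 members with the smallest unadjusted p in the genotype comparison whose RefSeq promoter entry (GRCm38.p6) held a CHR-type match, each given as the 250 bases before the annotated start, 5′ to 3′ on the gene's strand. Capitals mark TTTGAA or TTTAAA (CHR-type) and CCAAT on either strand.
Prc1 (chr7:80294226-80294475, plus strand): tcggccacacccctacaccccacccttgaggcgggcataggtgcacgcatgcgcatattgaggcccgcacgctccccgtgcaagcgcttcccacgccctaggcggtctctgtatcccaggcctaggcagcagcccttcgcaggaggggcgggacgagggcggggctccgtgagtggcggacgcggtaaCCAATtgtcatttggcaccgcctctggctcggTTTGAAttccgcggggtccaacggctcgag
Top2a (chr11:99024190-99024439, minus strand): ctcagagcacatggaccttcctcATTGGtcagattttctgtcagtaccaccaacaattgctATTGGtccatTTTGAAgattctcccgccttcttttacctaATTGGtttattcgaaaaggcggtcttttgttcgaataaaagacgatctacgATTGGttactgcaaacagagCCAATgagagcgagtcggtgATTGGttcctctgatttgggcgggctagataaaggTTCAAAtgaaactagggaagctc
Cenpa (chr5:30666636-30666885, plus strand): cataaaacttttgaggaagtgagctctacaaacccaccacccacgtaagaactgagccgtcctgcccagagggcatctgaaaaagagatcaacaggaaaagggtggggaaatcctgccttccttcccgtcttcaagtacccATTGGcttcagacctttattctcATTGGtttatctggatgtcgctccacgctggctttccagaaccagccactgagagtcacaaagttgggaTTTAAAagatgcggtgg
Kif11 (chr19:37376132-37376381, plus strand): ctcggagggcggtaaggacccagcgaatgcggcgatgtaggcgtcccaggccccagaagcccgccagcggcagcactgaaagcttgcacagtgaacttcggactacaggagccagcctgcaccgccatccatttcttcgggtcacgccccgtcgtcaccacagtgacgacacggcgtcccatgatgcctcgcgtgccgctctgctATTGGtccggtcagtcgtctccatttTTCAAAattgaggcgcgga
Smc2 (chr4:52438971-52439220, plus strand): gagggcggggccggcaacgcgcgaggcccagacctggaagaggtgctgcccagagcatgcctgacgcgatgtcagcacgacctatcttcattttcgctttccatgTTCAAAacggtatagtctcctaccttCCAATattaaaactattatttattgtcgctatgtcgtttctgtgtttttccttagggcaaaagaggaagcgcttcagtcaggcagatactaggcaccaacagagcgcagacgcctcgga
Plk1 (chr7:122159185-122159434, plus strand): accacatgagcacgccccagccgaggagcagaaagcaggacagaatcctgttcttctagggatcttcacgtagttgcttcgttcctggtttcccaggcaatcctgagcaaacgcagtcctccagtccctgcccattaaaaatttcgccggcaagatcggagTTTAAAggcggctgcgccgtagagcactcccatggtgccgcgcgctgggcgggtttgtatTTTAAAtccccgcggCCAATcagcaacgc

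A total of 42 of the 52 members had a promoter entry, 45 entries in all. TTTGAA was found in 37.8% of the member entries, against 16.0% of all 32851 entries of the same length, and TTTAAA in 13.3%, against 12.1%. CCAAT was found in 73.3% of member entries, against 33.8% of all entries. CCAAT together with a CHR-type match was found in 42.2%, against 8.8%. The motif TTCCTNGAA, a form of the sequence known to be bound by Bcl6, was found in 1 of 45 member entries (2.2%), against 1.3% of all entries. Both strands were searched, TTTAAA reads the same on both, and no match overlapped a match to a different motif in a member entry. The full set of entries includes non-coding genes and other kinds of promoter, so these shares describe the letters and nothing more. In the Prc1 entry shown, the CHR-type match lay 30 to 25 bases before the start, and in Kif11 19 to 14 bases before it. Prc1 had another entry, which held CCAAT 37 to 33 bases before its own start and no CHR-type match. The entry shown was taken because it held the match.

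The median log2 signal of all genes lay between 7.57 and 7.64 on the 8 arrays. Bcl6 itself measured 9.05, 8.67, 8.83 and 8.40 on the Bcl6 cKO arrays, replicates 1 to 4, against 8.47, 8.33, 8.56 and 8.10 on the WT arrays. Its signal was thus not lower on the arrays labelled as lacking it, and replicates 1, 2 and 3 of Bcl6 cKO lay above every WT array. The sources used here do not name the deleted exons, so these values do not show whether the deletion took place, and the cause was not tested. WT replicate 4 stood apart, with an interquartile range of deviations from each gene's median of 0.18, against 0.085 to 0.115 on the other arrays. Y-linked genes were high on Bcl6 cKO replicate 1 and on WT replicates 1, 2 and 3, and at background on the other 4 arrays, so sex was unequal between the genotypes. T cell markers were bright, with Cd4 at 12.64 to 12.88 on Bcl6 cKO arrays and 12.81 to 12.93 on WT arrays, and Cd3e at 13.09 to 13.16 and 13.17 to 13.20. Mean log2 levels of the B cell list ran from 6.35 to 6.48 on Bcl6 cKO arrays and from 6.35 to 6.43 on WT arrays. Those of the myeloid list ran from 6.48 to 6.86 and from 6.52 to 6.65, and those of the natural killer cell list from 5.23 to 5.32 and from 5.21 to 5.32. Of the CD8 chains, Cd8a lay at 6.90 to 7.05 on Bcl6 cKO arrays and at 6.93 to 7.14 on WT arrays, while Cd8b1 lay at 10.41 to 10.78 and at 10.90 to 11.12 (limma adjusted p = 0.0541). The regulatory T cell gene Foxp3 averaged 9.23 ± 0.32 and 9.72 ± 0.13 (SD, n = 4 each). The regulatory T cell list as a whole ran from 10.10 to 10.43 and from 10.31 to 10.52, and the erythroid list from 6.52 to 6.64 and from 6.50 to 6.61. The CD4 T cell list lay at 12.44 to 12.59 on Bcl6 cKO arrays, against 12.61 to 12.65 on WT arrays, with 1 of 8 genes above WT. None of the marker genes passed an adjusted p of 0.05, and the part of other cells in the results below was not tested.

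The comparison of genotypes asks which genes depend on Bcl6 after activation. For the mitotic genes the differences ran almost all one way and none passed the test over all genes. Of the 52 members 49 had a higher mean in Bcl6 cKO than in WT cells, against 51.2% of all genes tested, and the median log2 difference was 0.20, against 0.00 over all genes. Members varied together across arrays, so this count does not rest on separate observations. The mean of the members per array averaged 8.43 ± 0.19 in Bcl6 cKO and 8.22 ± 0.18 in WT (SD, n = 4 each). No member passed limma at an adjusted p of 0.05 over all genes in either direction, where 21 genes passed higher (0.105%) and 23 lower (0.115%), 0.221% in all. At an adjusted p of 0.1 no member passed either (0.662% of all genes). At an unadjusted p under 0.05, 7 members were higher (Bub1, Plk1, Kif11, Nuf2, Prc1, Top2a and Smc2; 13.5% of members, against 4.67% of all genes) and 1 was lower (Cenpa; 6.17% of all genes). Differences were small: the largest, that of Bub1, was 1.5-fold, and 11 members (21.2%) had a log2 difference of 0.3 or more, against 1.14% of all genes. Standard errors were larger in the members (median 0.12, against 0.0653 over all genes), so this cut does not compare them evenly with other genes. The groups overlapped in all 52 members, while 2.33% of all genes had every Bcl6 cKO array above every WT array and 3.64% every one below.

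**Figure D1:**
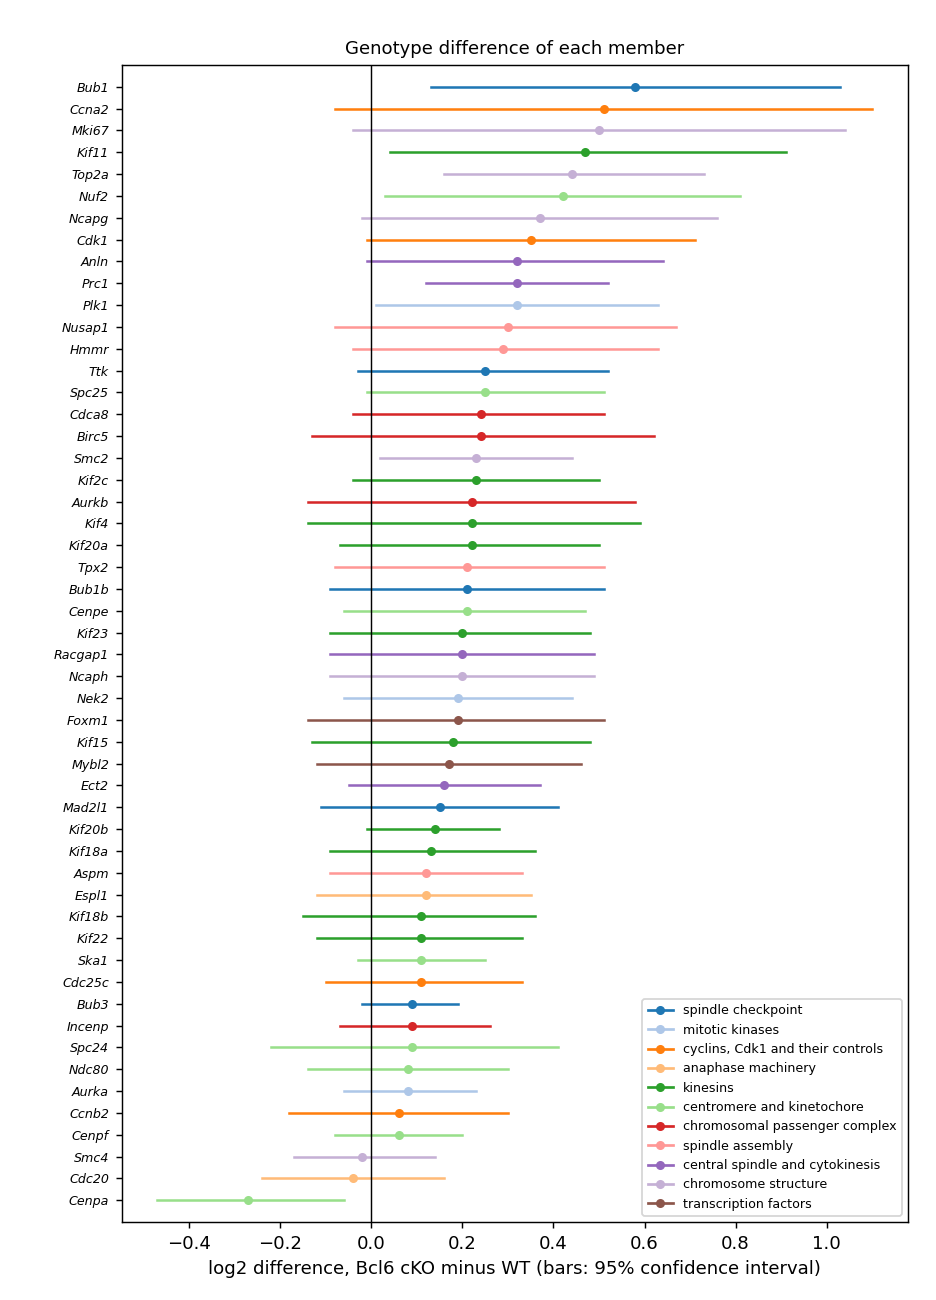
Log2 difference in signal, Bcl6 cKO minus WT, of the 52 measured mitosis and spindle genes, with 95% confidence intervals from limma (4 arrays per genotype) and colours for the role of the gene. Points lie to the right of 0 for 49 genes, and 44 of the 52 intervals span 0.

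The spread between arrays of 1 genotype was wide. The median range of a member was 0.45 log2 units over the Bcl6 cKO arrays and 0.48 over the WT arrays. The median standard error of a member's difference was 0.12, against 0.0653 over all genes, and 48 of 52 members lay above that value.

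The spindle checkpoint genes hold back anaphase until kinetochores are attached. All 5 had higher means in Bcl6 cKO (median log2 difference 0.21). Bub1, the kinase that brings checkpoint proteins to the kinetochore, measured 8.44, 8.39, 8.84 and 8.88 on Bcl6 cKO arrays, replicates 1 to 4, against 7.95, 8.62, 8.15 and 7.50 on WT arrays. WT replicate 2 lay above the lower Bcl6 cKO arrays and WT replicate 4 below every other array. The log2 difference was 0.58 with a standard error of 0.20, and did not pass limma over all genes (adjusted p = 0.322). Ttk (Mps1), the kinase that starts checkpoint signalling, measured 7.07, 6.96, 7.36 and 7.33 in Bcl6 cKO, against 6.87, 7.26, 6.91 and 6.69 in WT. Again WT replicate 2 lay above the lower Bcl6 cKO arrays, replicates 1 and 2, and below the others. Bub1b and Mad2l1, which inhibit the anaphase-promoting complex, differed by 0.21 and 0.15, and Bub3, the partner of both Bub kinases, by 0.09.

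Among the mitotic kinases, Plk1, which acts from mitotic entry to cytokinesis, measured 8.42, 8.52, 8.81 and 9.01 in Bcl6 cKO, against 8.33, 8.56, 8.52 and 8.07 in WT. Replicates 3 and 4 of Bcl6 cKO stood above all WT arrays and the others among them. Its log2 difference was 0.32, with a 95% interval of 0.01 to 0.63 (limma adjusted p = 0.434). Nek2, a kinase of centrosome separation, measured 7.32, 7.31, 7.57 and 7.73, against 7.24, 7.56, 7.26 and 7.12 in WT. Aurka, the centrosomal Aurora kinase, differed by 0.08.

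Cdk1 is the kinase that drives entry into mitosis, with cyclins A and B as partners. Cdk1 measured 9.42, 9.29, 9.95 and 9.96 in Bcl6 cKO, against 9.31, 9.60, 9.29 and 9.02 in WT. Ccna2 (cyclin A2) measured 9.38, 9.42, 10.07 and 10.51 in Bcl6 cKO, against 9.17, 9.99, 9.08 and 9.10 in WT. In both genes 2 Bcl6 cKO arrays were high and WT replicate 2 was the highest WT array. The log2 differences were 0.35 for Cdk1 and 0.51 for Ccna2 (limma adjusted p = 0.482 and 0.538). Ccnb2 (cyclin B2) differed by 0.06 and Cdc25c, a phosphatase that activates Cdk1, by 0.11.

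**Figure D2:**
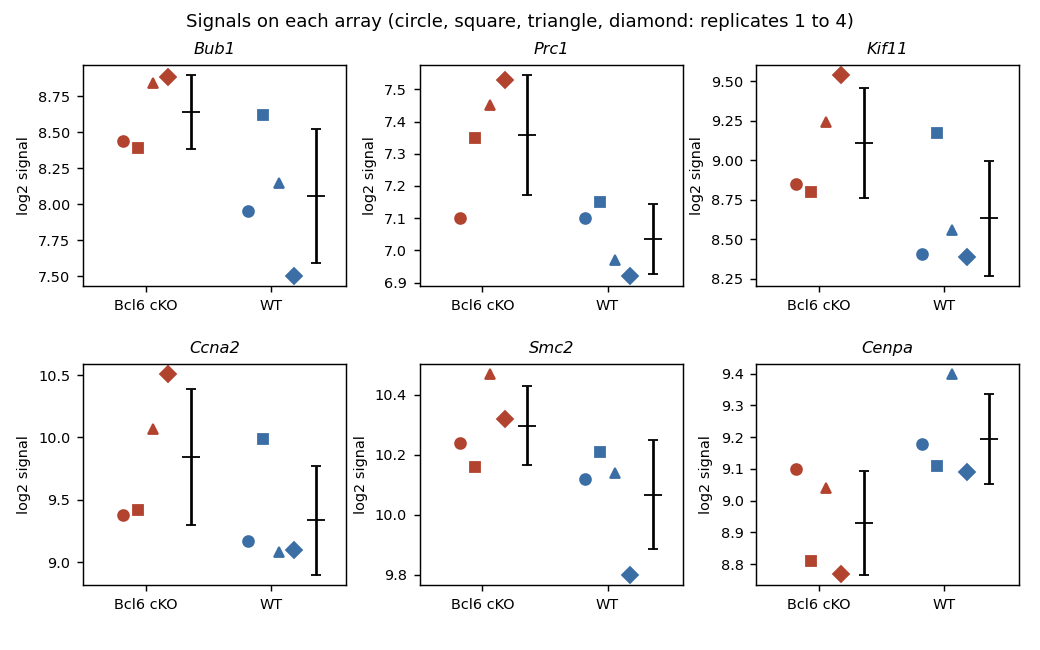
Log2 signal of 6 members on each array, Bcl6 cKO left and WT right; symbols mark the replicate number and black bars the mean ± SD (n = 4). The groups overlap in each gene; WT replicate 2 (square) is the highest WT array in Bub1, Prc1, Kif11, Ccna2 and Smc2, and Cenpa has the higher mean in WT.

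The 2 genes of the anaphase machinery had a median difference of 0.04. Cdc20, which activates the anaphase-promoting complex, measured 8.66, 8.69, 8.85 and 8.70 in Bcl6 cKO, against 8.77, 8.90, 8.91 and 8.49 in WT, a log2 difference of -0.04. Espl1 (separase, the protease that cuts cohesin) measured 7.41, 7.44, 7.69 and 7.78, against 7.37, 7.75, 7.38 and 7.36 in WT. WT replicate 2 lay with Bcl6 cKO replicates 3 and 4, and the log2 difference of Espl1 was 0.12. The other subunits and controls of the anaphase-promoting complex, 17 genes that are not members, had a median difference of 0.04, with 9 above and 8 below WT. Ube2c, the ubiquitin-conjugating enzyme of the complex, measured 8.39, 8.95, 8.94 and 9.43 in Bcl6 cKO, against 8.57, 8.69, 8.51 and 8.64 in WT (limma adjusted p = 0.535). Bcl6 cKO replicate 1 lay below all WT arrays and the other 3 above them. Its subunit Cdc26 differed by 0.11 (limma adjusted p = 0.59).

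Kinesins move along or take apart microtubules. All 10 had higher means in Bcl6 cKO, with a median log2 difference of 0.19. Kif11 (Eg5), the motor that pushes spindle poles apart, measured 8.85, 8.80, 9.24 and 9.54 in Bcl6 cKO, against 8.41, 9.17, 8.56 and 8.39 in WT. All 4 Bcl6 cKO arrays lay above WT replicates 1, 3 and 4, and WT replicate 2 among them. The difference was 0.47 with an interval of 0.04 to 0.91 (limma adjusted p = 0.406). Kif20b varied less, at 8.27, 8.20, 8.43 and 8.38 in Bcl6 cKO, against 8.21, 8.27, 8.17 and 8.08 in WT. The remaining 8 ranged in log2 difference from 0.11 for Kif18b and for Kif22, a chromosome-bound motor, to 0.23 for Kif2c, a microtubule depolymerase. Between them lay Kif18a, which limits chromosome movement at the metaphase plate (0.13), Kif15 (0.18), the centralspindlin motor Kif23 (0.20), Kif20a, needed for cytokinesis (0.22), and the X-linked chromokinesin Kif4 (0.22).

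The kinetochore joins chromosome to microtubule. Of 8 centromere and kinetochore genes, 7 had higher means in Bcl6 cKO, with a median of 0.10. Nuf2, a subunit of the microtubule-binding Ndc80 complex, measured 8.09, 7.84, 8.36 and 8.57 in Bcl6 cKO, against 7.70, 8.19, 7.86 and 7.42 in WT. Its difference was 0.42, and its complex partners were at 0.25 (Spc25), 0.09 (Spc24) and 0.08 (Ndc80); whether the subunits differ from each other was not tested. Cenpa, the histone variant that marks the centromere, went the other way, at 9.10, 8.81, 9.04 and 8.77 in Bcl6 cKO, against 9.18, 9.11, 9.40 and 9.09 in WT. Only Bcl6 cKO replicate 1 reached the lowest WT array. The log2 difference of -0.27 was the lowest of all members and did not pass (limma adjusted p = 0.316). Cenpe, a kinetochore motor, differed by 0.21, Ska1 by 0.11 and Cenpf by 0.06.

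Aurkb, Birc5 (survivin), Incenp and Cdca8 (borealin) form the chromosomal passenger complex, which corrects faulty attachments. Cdca8 measured 8.39, 8.23, 8.61 and 8.68 in Bcl6 cKO, against 8.21, 8.54, 8.24 and 7.97 in WT. Birc5 measured 7.70, 7.37, 7.97 and 8.11, against 7.51, 7.97, 7.31 and 7.38 in WT. In both, WT replicate 2 lay above Bcl6 cKO replicates 1 and 2, and replicate 4 of Bcl6 cKO was highest. The differences were 0.24 for Cdca8, 0.24 for Birc5, 0.22 for the kinase Aurkb and 0.09 for the scaffold Incenp.

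Of the spindle assembly factors, Nusap1, which stabilises microtubules near chromosomes, measured 6.93, 7.36, 7.08 and 7.77 in Bcl6 cKO, against 6.85, 7.31, 6.78 and 7.02 in WT. Hmmr, a spindle pole protein, measured 5.85, 6.03, 5.87 and 6.28, against 5.54, 6.20, 5.53 and 5.58 in WT. Hmmr was the dimmest member, and its WT mean of 5.71 fell inside the span of signals that 3 Y-linked genes gave on arrays without Y signal (4.58 to 5.83), so it was not shown to stand above background in WT. Tpx2, the activator of Aurora A, differed by 0.21 and Aspm, a pole-focusing protein, by 0.12.

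Cytokinesis genes act at the central spindle. Prc1, which bundles antiparallel microtubules there, had the smallest p of all members. It measured 7.10, 7.35, 7.45 and 7.53 in Bcl6 cKO, against 7.10, 7.15, 6.97 and 6.92 in WT. Replicates 2, 3 and 4 of Bcl6 cKO lay above all WT arrays, and replicate 1 within them. The log2 difference was 0.32 with a standard error of 0.09 (limma adjusted p = 0.212). Without Bcl6 cKO replicate 1 it was 0.41 and passed over all genes (limma adjusted p = 0.0474, where 0.697% of all genes passed in either direction). That fit left no Bcl6 cKO array with high Y-linked signal, so genotype and sex were largely confounded in it. With sex as a term and all 8 arrays, Prc1 differed by 0.27 (limma adjusted p = 0.429). It differed by 0.03 on arrays with high Y-linked signal and by 0.52 on the others. No other member was called in any fit that left out 1 array. Anln (anillin), of the contractile ring, measured 7.49, 7.24, 7.75 and 7.78 in Bcl6 cKO, against 7.27, 7.50, 7.37 and 6.86 in WT. Racgap1 differed by 0.20 and Ect2, the exchange factor that positions the furrow, by 0.16.

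Chromosome structure genes showed the highest median difference of the 11 roles, 0.30. Top2a, the topoisomerase that untangles sister chromatids, measured 10.08, 10.04, 10.36 and 10.48 in Bcl6 cKO, against 9.70, 10.15, 9.75 and 9.58 in WT. Smc2, a core condensin subunit, measured 10.24, 10.16, 10.47 and 10.32, against 10.12, 10.21, 10.14 and 9.80 in WT. Top2a differed by 0.44 and Smc2 by 0.23 (limma adjusted p = 0.226 and 0.407). With the mean of both Top2a clusters in place of the brighter one, Top2a differed by 0.21 (limma adjusted p = 0.488). Mki67, the Ki-67 marker of cycling cells, differed by 0.50, and the condensin I subunits Ncapg and Ncaph by 0.37 and 0.20. Smc4, the partner of Smc2, was the brightest member, at a mean of 12.27 over the 8 arrays, and differed by -0.02.

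The transcription factors that drive these genes stood near the middle of the list. Foxm1 measured 7.32, 7.35, 7.90 and 7.87 in Bcl6 cKO, against 7.32, 7.72, 7.29 and 7.36 in WT. Mybl2 measured 8.63, 8.75, 9.13 and 9.25, against 8.67, 8.90, 8.88 and 8.62 in WT. In both genes replicates 3 and 4 of Bcl6 cKO stood above all other arrays, and replicates 1 and 2 within the WT range. The differences were 0.19 for Foxm1 and 0.17 for Mybl2 (limma adjusted p = 0.725 and 0.711).

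**Figure D3:**
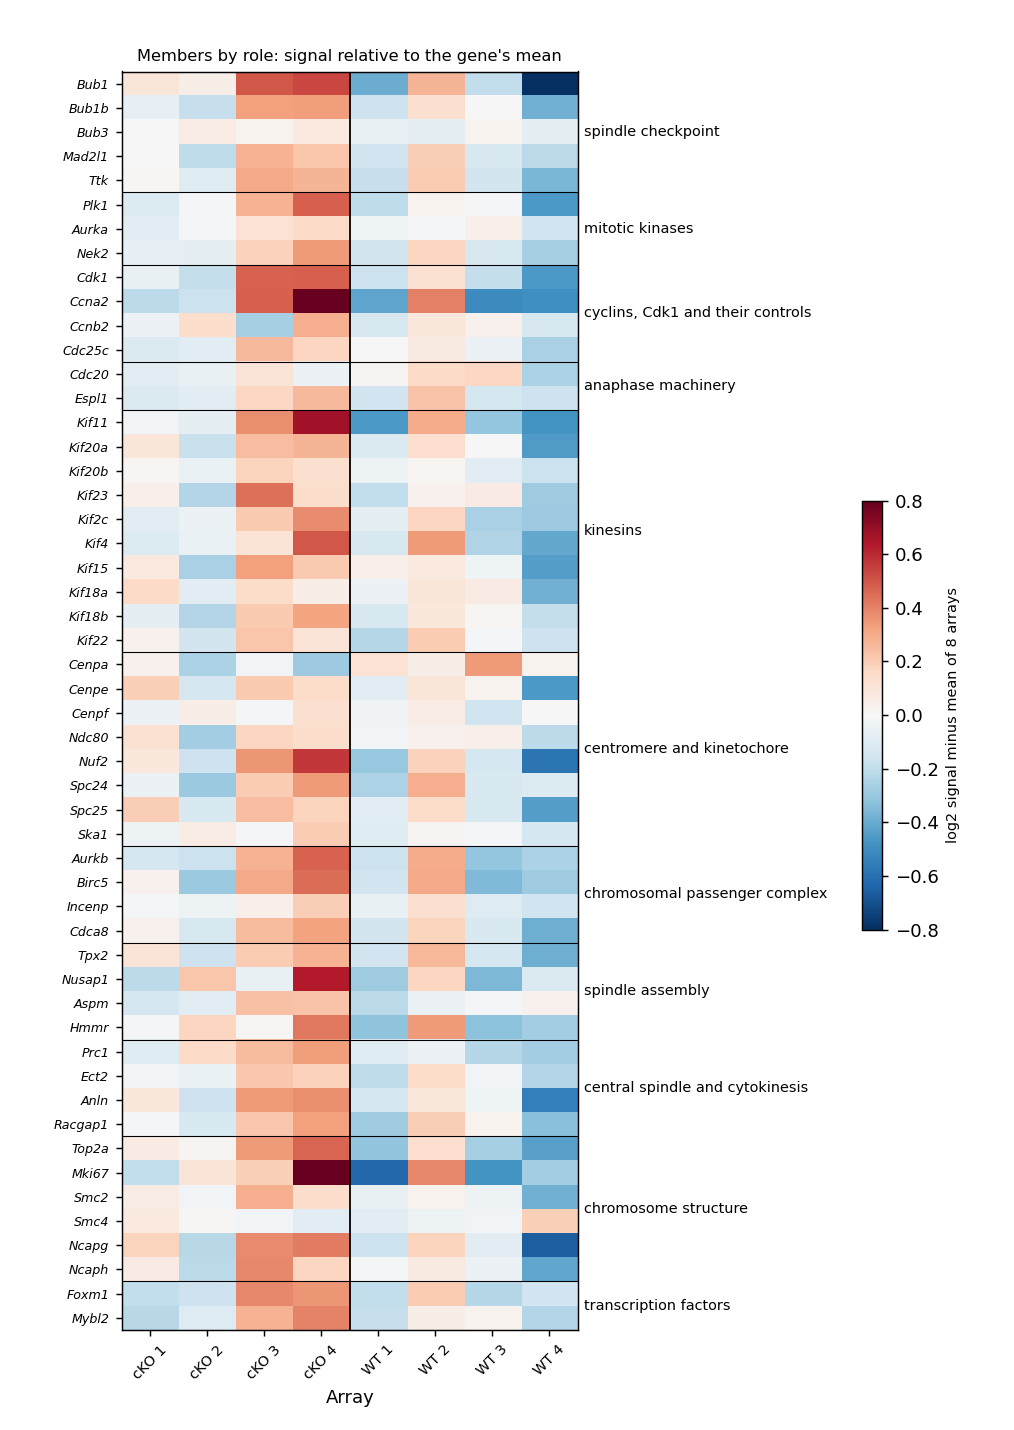
Log2 signal of each member minus its own mean over the 8 arrays, with genes in rows by role and arrays in columns (Bcl6 cKO left of the line, WT right; the colour scale is cropped at 0.8 log2 units). Bcl6 cKO replicates 3 and 4 and WT replicate 2 are red, and WT replicate 4 blue, across most roles.

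Most members and roles followed a similar order of arrays, though not an identical one, and WT replicate 4 was lowest in 9 of the 11 role means. Bcl6 cKO replicate 3 or 4 was the highest of the 8 arrays in 48 of 52 members, against 30.2% of all genes, and in 10 of the 11 role means. WT replicate 4 was the lowest of the 8 in 35 members, although it was also the lowest array in 21.8% of all genes, and WT replicate 2 was the highest WT array in 44. The mean of the members was 8.31, 8.24, 8.55 and 8.63 on the Bcl6 cKO arrays, against 8.17, 8.47, 8.23 and 8.03 on the WT arrays. WT replicate 2 therefore stood above Bcl6 cKO replicates 1 and 2, exceeding the first in 41 members and the second in 45. Within WT, replicate 2 exceeded replicate 4 in 49 of 52 members by a median of 0.45. They were the WT arrays with the highest and lowest member means. Their gap is thus unlike the median genotype difference of 0.20, which compares means of 4 arrays. The 4 members highest elsewhere were Smc4 on WT replicate 4 (12.46), Cenpa on WT replicate 3 (9.40), Cdc20 on WT replicate 3 (8.91) and Kif18a on Bcl6 cKO replicate 1 (8.15).

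**Figure D4:**
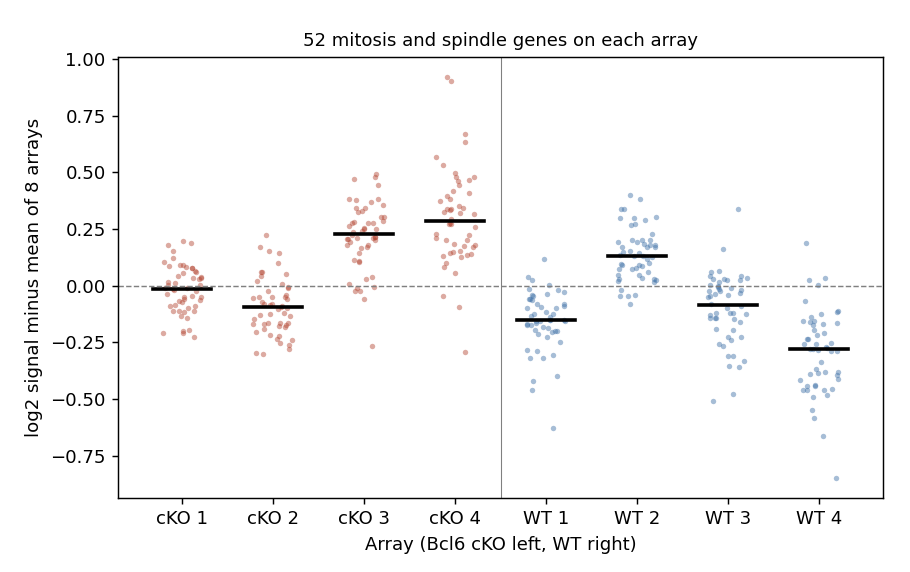
Log2 signal of the 52 members on each array minus the gene's own mean over the 8 arrays; each point is a gene and each bar the median of an array. The medians are -0.01, -0.09, 0.23 and 0.28 on Bcl6 cKO replicates 1 to 4 and -0.15, 0.13, -0.09 and -0.28 on WT replicates 1 to 4.

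The counts moved when single arrays were left out. Without WT replicate 2, 30 members were higher at an unadjusted p under 0.05 (4.12% of all genes) and 12 had separate groups (3.44% of all genes), with a median difference of 0.28 and still no member past the adjusted threshold. Without Bcl6 cKO replicate 2, 25 members were higher at that unadjusted level (4.53% of all genes). Without WT replicate 4 the median was 0.12, with 50 of 52 members above WT (53.0% of all genes) and 3 at an unadjusted p under 0.05 (5.13% of all genes). Without Bcl6 cKO replicate 4 the median was 0.13.

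Sex was unequal between genotypes, and the comparison was repeated within each kind of array. On arrays with high Y-linked signal, which set Bcl6 cKO replicate 1 against WT replicates 1, 2 and 3, 30 of 52 members were above WT (43.2% of all genes) with a median of 0.03, and 6 had separate groups (20.3% of all genes). On the others, which set Bcl6 cKO replicates 2, 3 and 4 against WT replicate 4 alone, 50 were above WT (48.0% of all genes) with a median of 0.44, and 42 had separate groups (30.3% of all genes). Bub1 differed by 0.20 and 1.20 on these 2 kinds of array, Ccna2 by -0.03 and 0.90, and Mybl2 by -0.19 and 0.42. Each comparison has a lone array in 1 genotype, and the second rests on the array that stood apart. In the first, Bcl6 cKO replicate 1 exceeded WT replicate 1 in 43 members (median difference 0.12) and WT replicate 3 in 37 (0.10). It exceeded WT replicate 2 in 8 (-0.15), so the median of 0.03 depends on that array. The interaction of genotype and Y-linked signal passed for no member in limma (smallest adjusted p = 0.35; 9 of 52 at an unadjusted p under 0.05, against 11.8% of all genes). With sex as a term in the fit, the median was 0.24, with 50 members above WT (45.9% of all genes), and no member passed.

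Mitotic genes outside the list and DNA replication genes had differences of the same sign. Of 76 other mitosis genes, 68 had higher means in Bcl6 cKO (median 0.14), and of 26 DNA replication genes all 26 (median 0.18), against 51.2% of all genes. Without WT replicate 4 these medians were 0.07 and 0.12. On arrays with high Y-linked signal they were 0.02 and 0.03, and on those with low Y-linked signal 0.38 and 0.39. None of either list passed the adjusted threshold in limma, while 15 and 6 were higher at an unadjusted p under 0.05 (4.67% of all genes). Mean levels of the replication list were 10.69, 10.53, 10.94 and 10.86 on Bcl6 cKO arrays, against 10.62, 10.67, 10.64 and 10.35 on WT arrays, so the highest and lowest arrays were Bcl6 cKO replicate 3 and WT replicate 4. The polymerase gene Pola1 differed by 0.27 and the thymidylate synthase gene Tyms by 0.36 (limma adjusted p = 0.302 and 0.369). In the other mitosis genes, the nuclear lamina gene Lmnb1 measured 9.47, 9.39, 9.65 and 9.62 in Bcl6 cKO, against 9.29, 9.38, 9.29 and 9.16 in WT, groups that did not overlap (limma adjusted p = 0.211). Cdc25b, a phosphatase that starts Cdk1 activation, lay lower in Bcl6 cKO, at 8.80, 8.81, 8.55 and 8.65, against 8.92, 9.45, 8.92 and 9.56 in WT (log2 difference -0.51, limma adjusted p = 0.207), and its groups did not overlap.

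**Figure D5:**
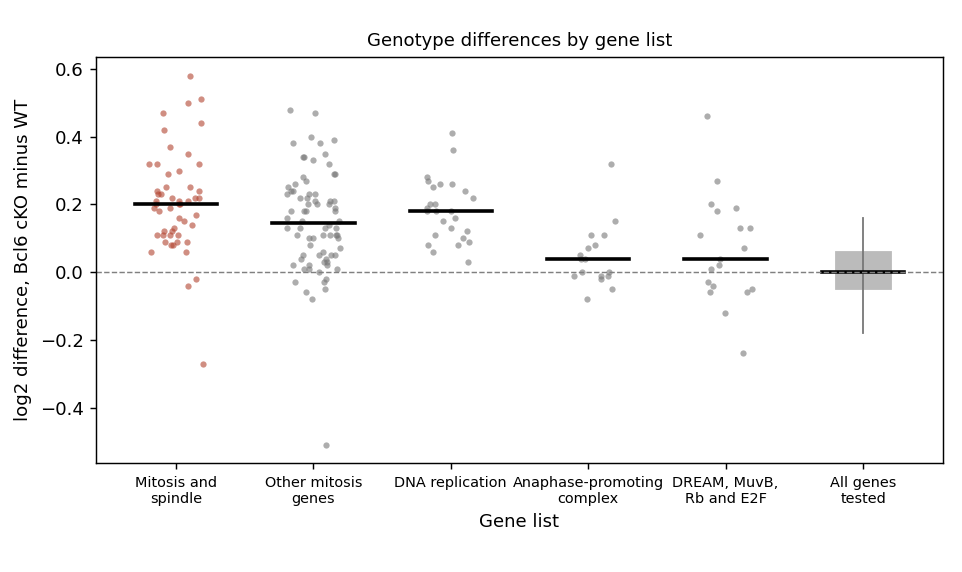
Log2 differences, Bcl6 cKO minus WT, of the 52 members (red) and of 4 other gene lists (grey points), with black bars at the medians; for all genes tested the box spans the 25th to 75th percentile (-0.05 to 0.06) and the line the 5th to 95th. Medians are 0.20 for the members, 0.14 for other mitosis genes, 0.18 for DNA replication and 0.04 for each of the remaining lists.

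The 19 genes of the DREAM and MuvB complexes and of the Rb and E2F families had a median difference of 0.04, with 12 above and 7 below WT. Rbl2 (p130), the pocket protein of the DREAM complex in resting cells, measured 9.93, 9.89, 9.77 and 9.70 in Bcl6 cKO, against 9.96, 10.13, 10.06 and 10.10 in WT. The groups did not overlap, the difference was -0.24, and it did not pass (limma adjusted p = 0.188). Tfdp1, the dimerisation partner of E2F factors, differed by 0.19 (limma adjusted p = 0.36). Activation markers, 7 genes, had a median difference of 0.11, with 5 above WT. The 2 below WT were Nr4a1 (-0.32) and Cd69 (-0.13), with limma adjusted p = 0.691 and 0.521. Il2, the growth factor gene of activated T cells, measured 11.05, 12.23, 11.54 and 11.88 in Bcl6 cKO, against 10.88, 11.23, 11.03 and 11.29 in WT (limma adjusted p = 0.343), and Myc differed by 0.17 (limma adjusted p = 0.35). Il2 was highest on Bcl6 cKO replicates 2 and 4. Myc measured 12.85, 12.96, 13.05 and 13.01 in Bcl6 cKO, against 12.86, 12.78, 12.87 and 12.69 in WT. Its highest arrays, Bcl6 cKO replicates 3 and 4, and its lowest, WT replicate 4, were also those of most mitotic genes. WT replicate 2, the highest WT array in most mitotic genes, lay below WT replicates 1 and 3 for Myc. The part of activation in the mitotic differences was not tested. The members lay on 15 chromosomes, and none on chromosome 16, which carries Bcl6.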

How the data were processed

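Signals of 8 arrays (4 Bcl6 cKO, 4 WT) were used. Each deposited value is a log2 signal of 1 transcript cluster on 1 array. RMA and Partek are named per the submitters' processing notes; the sources used here give no version or setting for them. RMA brings arrays to 1 distribution and compresses differences of dim genes. Of 35556 clusters 21789 had 1 gene symbol, and the cluster with the highest mean was kept per gene (19938 genes; Top2a was the 1 member with several). The genotype difference, Bcl6 cKO minus WT, was fitted by lmFit and eBayes with no covariate (limma 3.58.1, R 4.3.3), and p-values were given a Benjamini-Hochberg adjustment across the 19938 genes. Members and lists were chosen with earlier results of these data known, so lists are described by counts and medians with no test. Array-by-array values are given for the 2 members per role with the smallest p, which include the 2 lowest differences. Of each pathway list the 2 genes with the smallest p are named. The fit was tested on simulated data. Alternatives were trend and robust moderation, array weights, median centring, quantile normalization, a filter on mean signal, cluster means, a replicate block, a sex term read from Y-linked genes, differences within each kind of array, leaving out each array, and a threshold of 0.1. Arrays have no read depth; their number and the spread between them limit precision. Promoters came from RefSeq, GRCm38.p6.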

Additional observations from a re-analysis of the deposited data

Results flagged for a closer look

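A single array lay far from the other 3 of its group in 5 of 106 sets of 4 values examined, those of the 52 members and of their mean in each genotype. Chance gives about 1 in 20. On WT replicate 2, 4 members were high: Ccna2 at 9.99 (other WT arrays 9.08 to 9.17), Espl1 at 7.75 (7.36 to 7.38), Hmmr at 6.20 (5.53 to 5.58) and Foxm1 at 7.72 (7.29 to 7.36). Ndc80 was low on Bcl6 cKO replicate 2, at 7.91 (other Bcl6 cKO arrays 8.31 to 8.36).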

How the results depend on the processing

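No member passed in limma under any alternative except without Bcl6 cKO replicate 1, a fit with no Bcl6 cKO array of high Y-linked signal. Under the alternatives 0.0% to 0.697% of all genes passed. The count of members past the threshold ran from 0 to 1 over the fits without 1 array. Over the same fits the members with separate groups ran from 0 to 12 (2.92% to 5.67% of all genes), those above WT from 48 to 50 and the median log2 difference from 0.12 to 0.28. With the replicate number as a block the median was 0.20 with 49 members above WT and 0 past the threshold; same-numbered arrays had correlated deviations of 0.07, 0.21, 0.20 and 0.20, and differently numbered ones -0.24 to 0.19. Bcl6 cKO replicate 1 correlated best with WT replicate 3 (0.19), and the main fit took no pairing. Whether arrays of the same number share an effect was not tested. On arrays with high Y-linked signal 30 members were above WT, 6 had separate groups (1 array against 3; 20.3% of all genes), and named members changed sign: Plk1 -0.05, Nek2 -0.03, Ccna2 -0.03, Espl1 -0.09, Nusap1 -0.05, Mybl2 -0.19 and Foxm1 -0.12. On the others 42 members had separate groups (30.3% of all genes) and the median was 0.44. Cdc20 changed sign in 4 settings, among them the sex term (0.03) and arrays with low Y-linked signal (0.26). Without 1 array it ran from -0.14 to 0.00, and the remaining changes of sign were at values that round to 0.00. The cause was not tested. Median centring and quantile normalization left the median at 0.20 and 0.21.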

Other observations

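Top2a was read by a second, dim transcript cluster, which averaged 5.92 in Bcl6 cKO and 5.95 in WT (log2 difference -0.03, n = 4 each). The following genes of the cell cycle were picked after their values were seen; both were highest on Bcl6 cKO replicates 4 and 3. Knl1, the kinetochore scaffold for Bub1, measured 7.96, 7.70, 8.29 and 8.57 in Bcl6 cKO, against 7.42, 8.12, 7.59 and 7.45 in WT (limma adjusted p = 0.388). E2f8, an atypical E2F repressor, measured 7.74, 7.70, 8.24 and 8.51, against 7.50, 8.12, 7.49 and 7.25 in WT (limma adjusted p = 0.463).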
